A study of Homo sapiens with 8 samples.

Results

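The genes described here encode the proteasome: the subunits of its core and regulatory particles, the activators that bind the core, and the chaperones that assemble it. They were chosen by symbol. All probes whose single gene symbol began with PSMA, PSMB, PSMC, PSMD, PSME or PSMG followed by a number were taken, without PSMB8, PSMB9, PSMB10 and pseudogenes. The rule gave 63 probes for 42 of the 18852 genes that had probes with 1 symbol. Of these, 39 were proteasome genes. The other 3 symbols, PSMC3IP, PSME3IP1 and PSMD6-AS2, encode no subunit, activator or assembly factor and were counted apart. A gene was measured where at least 1 of its probes was detected on at least 2 of 8 arrays at a detection p under 0.05. That held for 37 of the 39 proteasome genes, and each of the 37 was detected and lay above background on all 8 arrays. PSMA8 and PSMB11, known as testis and thymus subunits, were detected on 0 arrays, as was PSMD6-AS2. The rule gave no probe for PSMA7, PSMC5, PSMD7, PSMD13 and PSMG4, so these proteasome genes are in none of the counts.

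RNA came from HCT116, a long-established line of human colon carcinoma cells, and was hybridised to Illumina HumanHT-12 v3 BeadChips. The 4 groups of 2 arrays were untreated cells with a non-targeting control siRNA, cells with that siRNA given 0.5 µM doxorubicin for 24 hours, untreated cells with an siRNA against TAF3, and cells with the TAF3 siRNA given the same doxorubicin treatment. Doxorubicin, which poisons topoisomerase II and breaks DNA, was added 48 hours after transfection, and all cells had been transfected. TAF3 belongs to TFIID, the factor that places RNA polymerase II at promoters, and binds histone H3 trimethylated at lysine 4, and the series title asks how that binding bears on selective gene activation. Whether the replicates came from separate cultures is not stated, so p-values here reflect the spread among the arrays, and that spread may be technical.

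The proteasome degrades proteins tagged with ubiquitin. Its 20S core is a barrel of alpha and beta rings in which a few beta subunits cut peptide bonds, and its 19S particle holds the ubiquitin receptors, a deubiquitinase and a ring of ATPases that unfolds substrates. In many cells, interferon replaces the catalytic subunits by the immunoproteasome subunits PSMB8, PSMB9 and PSMB10 and raises the PA28 activator made of PSME1 and PSME2, while the transcription factor NFE2L1 raises most subunit genes together when proteasome activity falls short.

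The promoters of the PA28 pair are shown first. PSME1 and PSME2 lay lower with TAF3 siRNA, and their promoters share a core of the interferon-stimulated response element, the DNA motif bound by interferon-activated factors. The same letters stand in the promoter of PSMB10, an immunoproteasome subunit outside the symbol rule. The 3 stretches below, from RefSeq's GRCh38.p14 promoter table, are read 5′ to 3′ on each gene's own strand. Capitals mark the match to the searched core, the letters GAAA, any 2 bases and GAAA again, on either strand.
PSME1, chr14:24136124-24136223, plus strand: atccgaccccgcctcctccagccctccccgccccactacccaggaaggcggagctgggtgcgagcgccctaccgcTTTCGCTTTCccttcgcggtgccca
PSME2, chr14:24146581-24146680, minus strand: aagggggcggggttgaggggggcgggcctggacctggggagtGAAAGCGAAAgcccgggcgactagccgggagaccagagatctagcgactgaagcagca
PSMB10, chr16:67936821-67936920, minus strand: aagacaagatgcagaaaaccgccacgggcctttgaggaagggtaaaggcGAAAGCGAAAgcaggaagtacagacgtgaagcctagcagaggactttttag
The core read GAAAGCGAAA in all 3 genes. It began 28 bases before the annotated start in PSME2 and 21 before it in PSMB10. In PSME1 it stood on the other strand and began at base 6, with the annotated start counted as base 1.

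The level of a probe is given as a log2 value, the base-2 logarithm of its signal after background correction and quantile normalization. A change is a difference between group means on that scale, so a change of 1 is a 2-fold difference, written with its standard error. That error rests on 1 spread per gene, shared by the 4 groups of 2 arrays and moderated by the spread of all features. Tests were made with limma across 16348 features, and a gene was called, and is said to have risen or fallen, where the Benjamini-Hochberg adjusted p over all of them lay under 0.05. Levels of different genes are not compared, because probes differ in how brightly they respond. Only 2 arrays per group limit the precision, and the culture was measured in bulk, so fewer cells of a kind and less RNA per cell cannot be told apart.

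Of the TAF3 transcript's 2 probes, the first lay below background on all 8 arrays. The other exceeded it on the control siRNA arrays with doxorubicin alone, at 89.3 and 101 signal units, so these arrays do not show whether the siRNA lowered TAF3 (limma adjusted p = 0.653 untreated and 0.167 with doxorubicin). Of 10 epithelial and intestinal markers, 7 were detected on all arrays, while LGALS4 was detected on 0 arrays, VIL1 on 1 and GPA33 on 2. Of 9 markers of blood cells, endothelium and fibroblasts, 5 were detected on 0 arrays and 2, PECAM1 and COL1A1, on all 8. Values of replicate arrays correlated at 0.9802 to 0.9937 across features, which are not independent replicates. Between 17428 and 19533 probes per array lay above background.

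With control siRNA, doxorubicin gave a median change of -0.11 over the 37 genes, against -0.02 over all features tested, and single genes ranged from -0.96 to 0.46. The median was -0.07 without control untreated replicate 1. With the signals scaled by their median in place of quantile normalization it was -0.06, against 0.03 over all features. After quantile normalization 4 of 37 genes fell, namely PSMA1, PSMC4, PSMC6 and PSMG1, and 0 rose. That is 10.8% called, against 17.1% of all features, of which 1484 rose and 1308 fell. Over the 12071 features detected on all 8 arrays, as all 37 genes were, the median was -0.04 and 19.6% were called. The 95% interval of the change lay within 2-fold in either direction for 34 of the 37 genes and for 12043 of the 16348 features. The arrays of the 2 groups did not overlap for 16 genes that were lower with doxorubicin (43.2%, against 33.8% of all features) and for 5 that were higher (13.5%, against 29.8%). The call count was 0 without control untreated replicate 1, control doxorubicin replicate 2 or control doxorubicin replicate 4. It was 1, PSMC4, without control untreated replicate 3, and 2, PSMC4 and PSMG1, on the log2 deposited signal as it is or with a normexp offset of 16.

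With TAF3 siRNA, the doxorubicin change had a median of -0.11, against 0.01 over all features, and limma called 0 of 37 genes (4.65% of all features were called, 339 higher and 421 lower). Over the features detected on all 8 arrays the median was 0.01 and 5.92% were called. At an unadjusted p under 0.05 there were 5 of the 37 and 3428 of all features. The interval lay within 2-fold for 35 of the 37 genes and for 13338 of the 16348 features. Arrays did not overlap for 11 genes that were lower (29.7%, against 23.1%) and for 3 that were higher (8.11%, against 24.6%). With median scaling the median of the 37 changes was -0.27, against -0.04 over all features. With that scaling 5 of the 37 were positive, against 14 after quantile normalization. The median of the 37 was -0.02 without TAF3 siRNA doxorubicin replicate 2 and -0.17 without replicate 4. With median scaling, or without TAF3 siRNA doxorubicin replicate 4, 1 gene, PSMG1, was called.

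TAF3 siRNA in untreated cells gave a median change of 0.10, against 0.01 over all features. The median was 0.03 without control untreated replicate 1. With median scaling it was 0.16, against 0.05 over all features. limma called 0 of 37 genes and 0 of 16348 features there, though 314 features were called without TAF3 siRNA untreated replicate 3, 16 without control untreated replicate 3 and 2 without TAF3 siRNA untreated replicate 1. At an unadjusted p under 0.05 there were 3 of the 37 and 1973 of all features. In 12 genes both TAF3 siRNA arrays lay above both control arrays (32.4%, against 21.3% of all features), and in 5 they lay below (13.5%, against 19.6%).

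Under doxorubicin the TAF3 siRNA gave a median change of 0.17, against 0.03 over all features. With median scaling it was 0.09, against -0.02 over all features. It was 0.09 without control doxorubicin replicate 2 and 0.07 without TAF3 siRNA doxorubicin replicate 4. PSMD5 rose and PSME1 and PSME2 fell, so that 3 of 37 genes were called, against 13.8% of all features, of which 1067 rose and 1190 fell. Over the features detected on all 8 arrays the median was 0.06 and 16.1% were called. Of the 37 genes, 25 had a positive change, and 21 with median scaling. The interval lay within 2-fold for 33 of them and for 12242 of the 16348 features. Arrays did not overlap for 14 genes that were higher with TAF3 siRNA (37.8%, against 33.1%) and for 7 that were lower (18.9%, against 29.0%). The call count was 0 without control doxorubicin replicate 2, control doxorubicin replicate 4 or TAF3 siRNA doxorubicin replicate 4, while these 3 genes were called under all 9 alternatives that kept every array.

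The same values can also be set out array by array. Each gene's value was set against its own mean over the 8 arrays, and the median over the 37 genes was taken. It was 0.01 and 0.04 on the untreated control arrays and -0.16 and -0.08 on the control doxorubicin arrays. It was 0.10 and 0.15 on the untreated TAF3 siRNA arrays and -0.08 and 0.12 on the TAF3 siRNA doxorubicin arrays. In this median the TAF3 siRNA doxorubicin arrays overlapped the control doxorubicin arrays (-0.0797 on TAF3 siRNA replicate 2, against -0.0788 on control replicate 4). The TAF3 siRNA doxorubicin arrays differed from each other by more than the other pairs did. On replicate 2, 15 of 37 genes lay above their own mean, and on replicate 4, 27 of 37. The median over all features stayed between -0.03 and 0.01 on the 8 arrays.

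**Figure D1:**
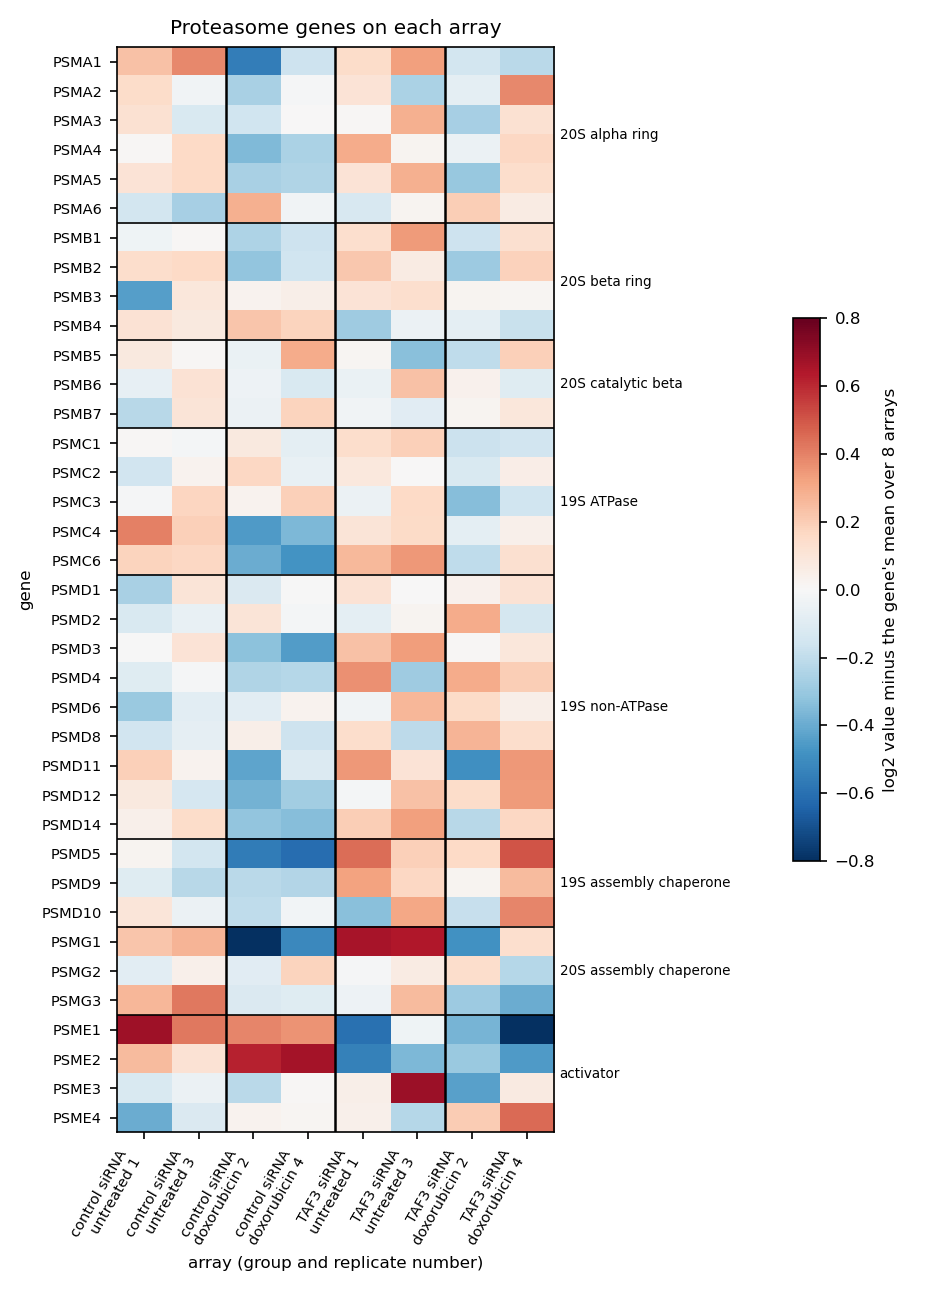
Heat map of the 37 measured proteasome genes (rows, ordered by role) on the 8 arrays (columns, named by group and replicate number); colour is the log2 value minus the gene's mean over the 8 arrays, and values beyond 0.8 in either direction take the end colour. PSME1 and PSME2 are higher on every control siRNA array than on any TAF3 siRNA array, and PSME1 is near its mean on TAF3 siRNA untreated replicate 3. PSMG1 is low on the control siRNA doxorubicin arrays and on TAF3 siRNA doxorubicin replicate 2.

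**Figure D2:**
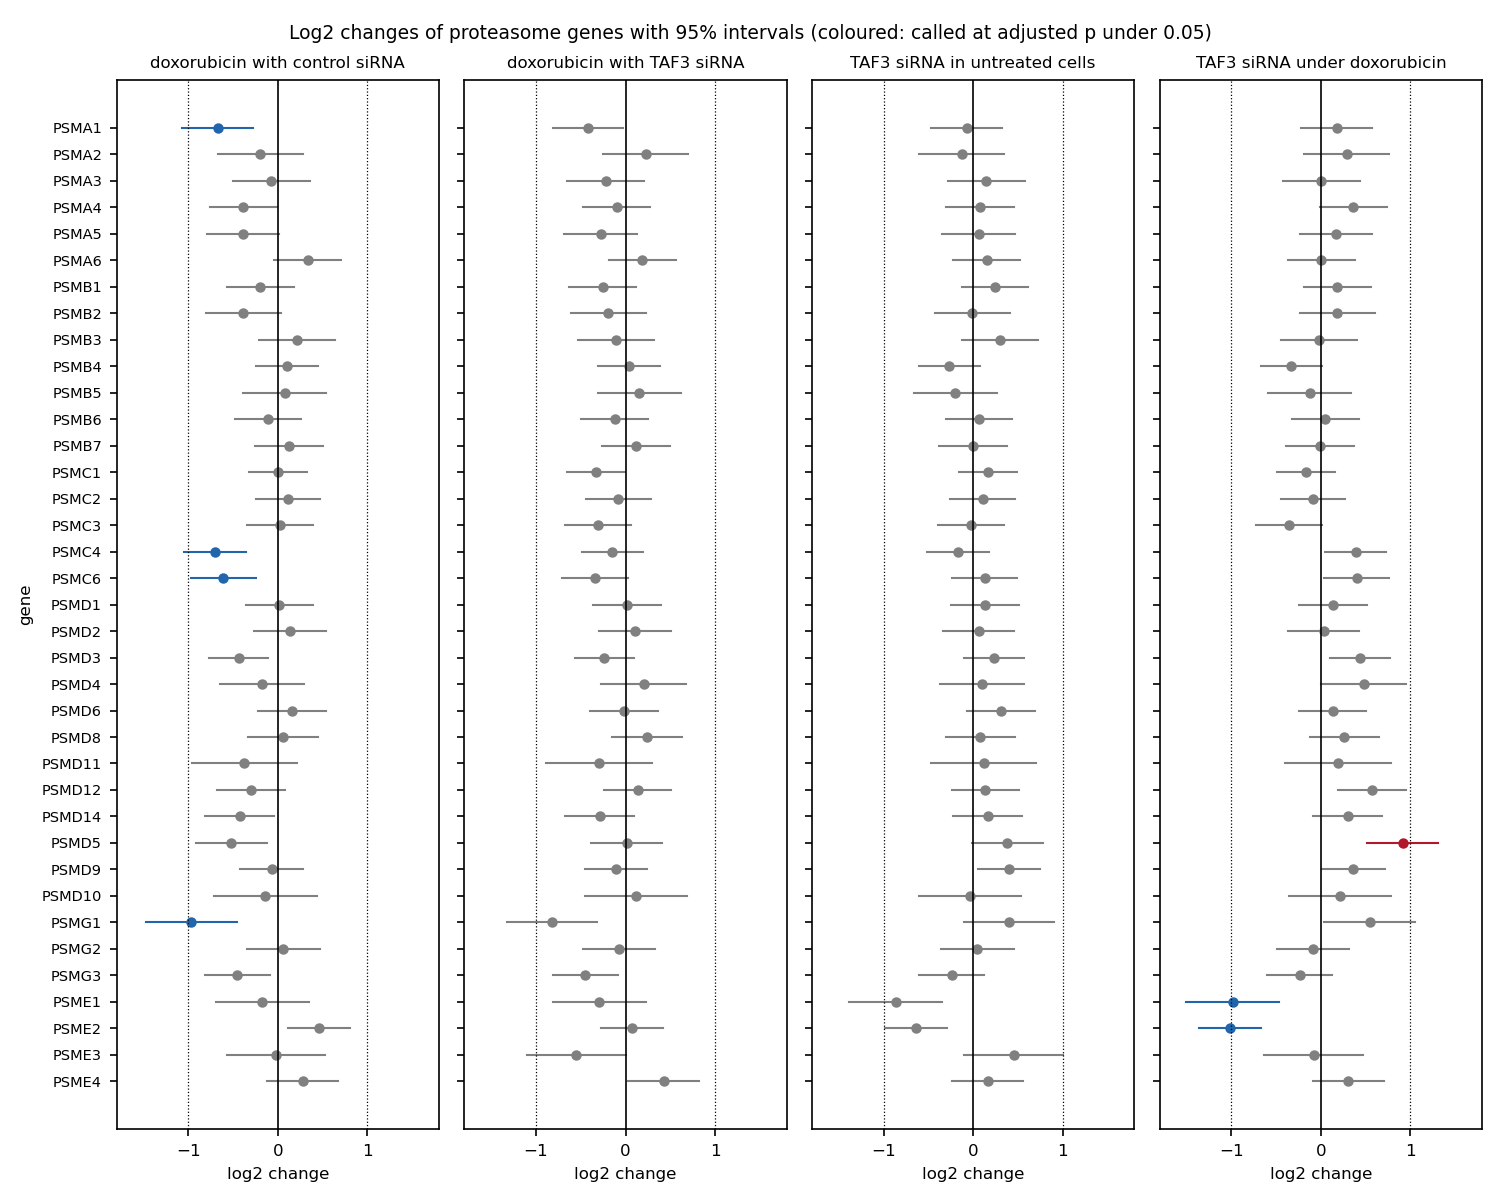
Log2 change (dots) and 95% interval from limma (lines) of each proteasome gene in 4 comparisons of 2 arrays against 2; dotted lines mark a 2-fold difference, and genes called at an adjusted p under 0.05 are blue where lower and red where higher. Of the 37 genes, 4 are called for doxorubicin with control siRNA, 0 for doxorubicin with TAF3 siRNA, 0 for TAF3 siRNA in untreated cells and 3 for TAF3 siRNA under doxorubicin.

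None of the 3 catalytic subunits was called in any comparison. PSMB5, which carries the chymotrypsin-like activity, read 12.07 and 11.99 on the untreated control arrays, 11.93 and 12.28 on the control doxorubicin arrays, 12.01 and 11.65 on the untreated TAF3 siRNA arrays, and 11.78 and 12.18 on the TAF3 siRNA doxorubicin arrays. The groups overlapped in all 4 comparisons. PSMB6, the caspase-like subunit, read 13.52 and 13.70, then 13.54 and 13.46, then 13.53 and 13.82, and then 13.62 and 13.49 in the same order of groups. PSMB7, the trypsin-like subunit, read 13.01 and 13.34, then 13.19 and 13.41, then 13.21 and 13.14, and then 13.26 and 13.33. The groups of PSMB6 overlapped in all 4 comparisons. Those of PSMB7 overlapped in 3, and with TAF3 siRNA both doxorubicin arrays lay above both untreated ones.

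With control siRNA, the doxorubicin change and its 95% interval were 0.08 (-0.38 to 0.54) for PSMB5, -0.11 (-0.48 to 0.26) for PSMB6 and 0.12 (-0.26 to 0.50) for PSMB7. For TAF3 siRNA under doxorubicin they were -0.13 (-0.59 to 0.34), 0.05 (-0.32 to 0.42) and -0.01 (-0.39 to 0.37). A 2-fold difference in either direction lay outside each of these intervals. The sign of the changes of PSMB5 and PSMB7 turned when single arrays were left out, and that of PSMB6 for TAF3 siRNA under doxorubicin also with median scaling.

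Of the other core genes, PSMA1, an alpha-ring subunit, was the only one called by its brightest probe. It read 13.33 and 13.48 untreated and 12.54 and 12.92 with doxorubicin after control siRNA. After TAF3 siRNA it read 13.24 and 13.42 untreated and 12.94 and 12.88 with doxorubicin. All 4 doxorubicin arrays lay below all 4 untreated arrays. The change with control siRNA was -0.67 ± 0.18 (limma adjusted p = 0.0316), a 1.59-fold lower value, and with TAF3 siRNA it was -0.42 ± 0.18 (limma adjusted p = 0.213).

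The remaining alpha-ring genes, PSMA2, PSMA3, PSMA4, PSMA5 and PSMA6, had doxorubicin changes with control siRNA between -0.39 and 0.33, and the non-catalytic beta-ring genes PSMB1, PSMB2, PSMB3 and PSMB4 between -0.39 and 0.21. PSMA6 was the alpha-ring gene with a positive change, at 0.33 (limma adjusted p = 0.208). For TAF3 siRNA under doxorubicin the 6 measured alpha-ring genes had changes between 0.00 and 0.36, of which 4 were positive with median scaling. PSMA6's other probe had -0.33 there, against 0.01 for the brightest. PSMB4 was the core gene whose 4 TAF3 siRNA arrays lay below all 4 control arrays, with a change under doxorubicin of -0.33 ± 0.15 (limma adjusted p = 0.18). All 13 core genes had intervals within 2-fold in that comparison.

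Among the 19S ATPases, which pull substrates into the core, PSMC4 and PSMC6 fell with doxorubicin after control siRNA. PSMC4 read 11.17 and 10.96 untreated and 10.31 and 10.41 with doxorubicin after control siRNA. It read 10.87 and 10.92 untreated and 10.69 and 10.81 with doxorubicin after TAF3 siRNA. The control doxorubicin arrays were the lowest pair, and the doxorubicin arrays lay below the untreated arrays with either siRNA. PSMC4 fell by 0.70 ± 0.15 with control siRNA (limma adjusted p = 0.0158), or 1.63-fold, while its change with TAF3 siRNA was -0.15 ± 0.15 (limma adjusted p = 0.641).

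PSMC6 read 12.02 and 12.01 untreated and 11.45 and 11.37 with doxorubicin after control siRNA, and 12.10 and 12.19 untreated and 11.64 and 11.97 with doxorubicin after TAF3 siRNA. Again the control doxorubicin arrays were the lowest. The change was -0.61 ± 0.16 with control siRNA (limma adjusted p = 0.0331) and -0.34 ± 0.16 with TAF3 siRNA (limma adjusted p = 0.271). The other ATPase genes, PSMC1, PSMC2 and PSMC3, had changes of 0.01, 0.11 and 0.03 with control siRNA. Of the 5 measured ATPase genes, 2 were called, against 17.1% of all features.

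The 9 measured non-ATPase genes of the 19S particle had 0 calls in any comparison. They comprise the scaffolds PSMD1 and PSMD2, the ubiquitin receptor PSMD4, the deubiquitinase PSMD14, and the lid subunits PSMD3, PSMD6, PSMD8, PSMD11 and PSMD12. For TAF3 siRNA in untreated cells all 9 changes were positive, between 0.06 and 0.31. Under doxorubicin they ranged from 0.03 to 0.57 with a median of 0.26, and 8 of 9 were positive with median scaling. In that comparison both TAF3 siRNA arrays lay above both control arrays for 7 of the 9 genes, against 33.1% of all features. PSMD12 came closest to a call, with 0.57 ± 0.17 (limma adjusted p = 0.0528), followed by PSMD3 with 0.44 (limma adjusted p = 0.0803). PSMD3 was also the non-ATPase gene with the smallest p for doxorubicin with control siRNA, at -0.44 (limma adjusted p = 0.0712).

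**Figure D3:**
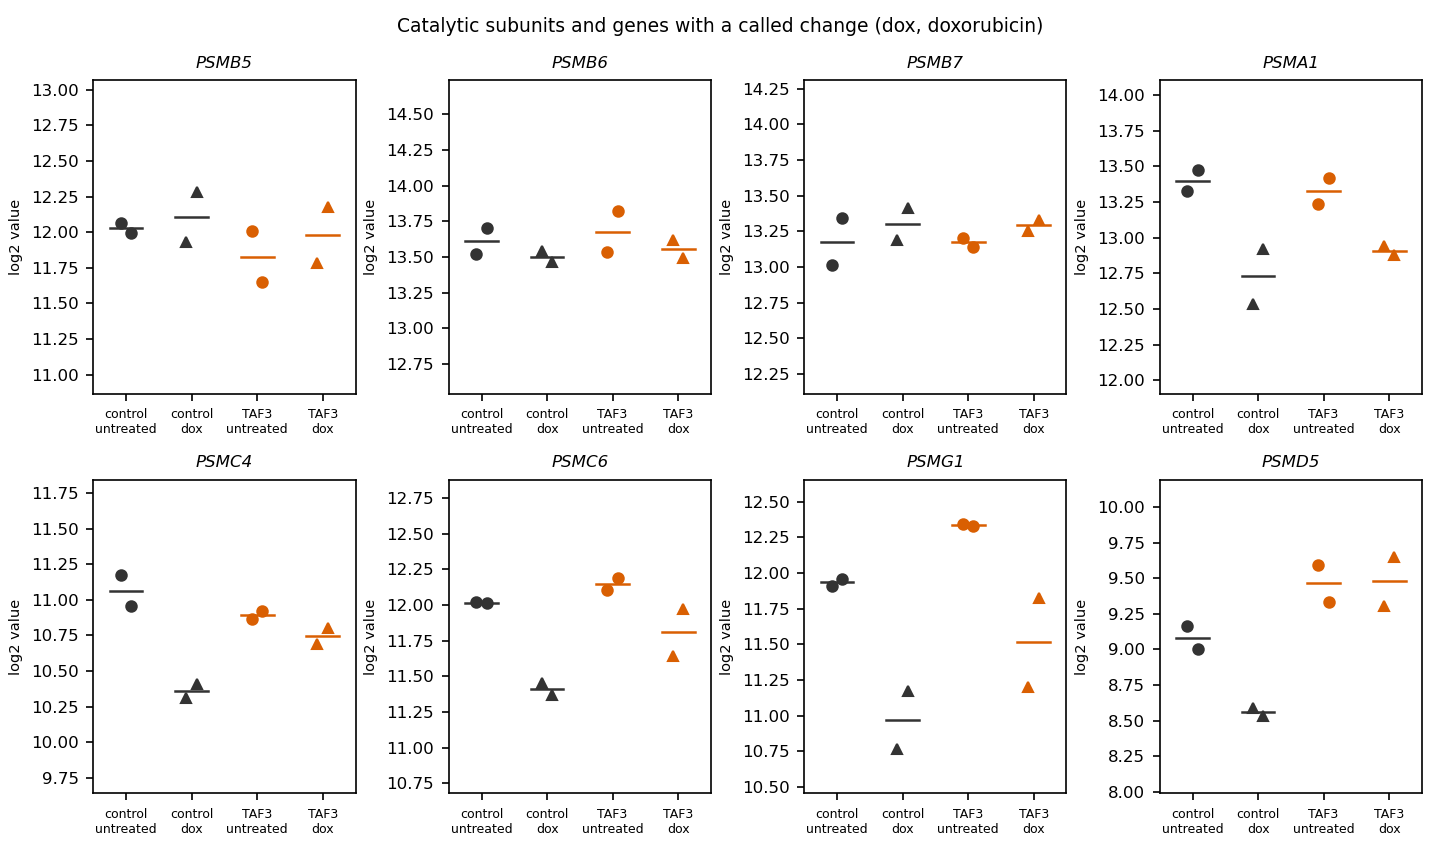
Log2 values of the catalytic subunits PSMB5, PSMB6 and PSMB7, the 4 genes called for doxorubicin with control siRNA (PSMA1, PSMC4, PSMC6, PSMG1) and PSMD5, by siRNA and treatment; each point is 1 array (circles untreated, triangles doxorubicin, grey control siRNA, orange TAF3 siRNA), lines are group means of 2 arrays, and every panel spans the same log2 range around its own level. Groups overlap for the catalytic subunits except PSMB7 with TAF3 siRNA, where the doxorubicin arrays are higher. The control siRNA doxorubicin arrays are the lowest pair for PSMC4, PSMC6, PSMG1 and PSMD5, an order not counted over all features.

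Of the 6 measured assembly chaperones, PSMG1 fell with doxorubicin after control siRNA and PSMD5 rose with TAF3 siRNA under doxorubicin. PSMG1 pairs with PSMG2 as a chaperone of the alpha ring. It read 11.91 and 11.96 untreated and 10.76 and 11.18 with doxorubicin after control siRNA, and 12.35 and 12.33 untreated and 11.20 and 11.82 with doxorubicin after TAF3 siRNA. All 4 doxorubicin arrays lay below all 4 untreated arrays. PSMG1 fell by 0.96 ± 0.22 with control siRNA (limma adjusted p = 0.0206), a 1.95-fold lower value and the largest decrease among the 37 genes in that comparison. With TAF3 siRNA its change was -0.82 ± 0.22 (limma adjusted p = 0.0729), which passed the threshold with median scaling (limma adjusted p = 0.0427).

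Its partner PSMG2 had changes of 0.06 and -0.07 in those comparisons. PSMG3, another alpha-ring chaperone, had -0.45 with either siRNA (limma adjusted p = 0.150 with TAF3 siRNA), and its 4 doxorubicin arrays also lay below its 4 untreated ones. In all, 5 of 37 genes had that order (13.5%, against 8.31% of all features): PSMA1, PSMC4, PSMC6, PSMG1 and PSMG3. The opposite order held for 0 of 37 (against 8.09%).

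PSMD5 is a chaperone that binds the 19S ATPases during assembly and leaves the finished particle. It read 9.17 and 9.0 untreated and 8.59 and 8.53 with doxorubicin after control siRNA, and 9.59 and 9.33 untreated and 9.31 and 9.65 with doxorubicin after TAF3 siRNA. All 4 TAF3 siRNA arrays lay above all 4 control arrays. Under doxorubicin it rose by 0.92 ± 0.18 with TAF3 siRNA (limma adjusted p = 0.0153), or 1.89-fold, and in untreated cells its change was 0.38 ± 0.18 (limma adjusted p = 0.43). The doxorubicin change was -0.52 with control siRNA (limma adjusted p = 0.0736) and 0.01 with TAF3 siRNA.

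PSMD9, another ATPase chaperone, read 7.50 and 7.38 untreated and 7.38 and 7.36 with doxorubicin after control siRNA, and 7.92 and 7.76 untreated and 7.62 and 7.85 with doxorubicin after TAF3 siRNA. It was the only other gene of the 37 whose 4 TAF3 siRNA arrays all lay above the 4 control arrays (2 genes, 5.41%, against 5.12% of all features). Its changes, 0.40 ± 0.16 untreated (limma adjusted p = 0.375) and 0.36 ± 0.16 under doxorubicin (limma adjusted p = 0.153), were not called. PSMD10, the chaperone also known as gankyrin, had changes between -0.14 and 0.22 in the 4 comparisons.

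The promoters of PSMD5 and PSMD9 each hold a core of the antioxidant response element, the motif that NFE2L1 and NFE2L2 bind. Capitals mark the match to TGACNNNGC, searched on both strands in the same RefSeq GRCh38.p14 windows.
PSMD5, chr9:120842993-120843092, minus strand: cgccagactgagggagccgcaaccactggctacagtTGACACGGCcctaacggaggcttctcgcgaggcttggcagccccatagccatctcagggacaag
PSMD9, chr12:121888596-121888695, plus strand: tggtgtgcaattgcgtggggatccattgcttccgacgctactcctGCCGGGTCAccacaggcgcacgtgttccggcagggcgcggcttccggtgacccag
The match began 134 bases before the start in PSMD5 and, on the other strand, 149 before it in PSMD9. Windows of 300 bases, from 250 before to 50 after the start, were found for 32 of the 37 genes, and 13 of those held this core (40.6%, against 16.1% of 27305 genes in the promoter table and 19.7% of the 9938 tested genes matched to it). The 13 were PSMA4, PSMB3, PSMC4, PSMD1, PSMD3, PSMD12, PSMD5, PSMD9, PSMG1, PSMG2, PSME1, PSME2 and PSME4. They include genes that fell, a gene that rose and genes that were not called. Of 1954 tested genes with this core, 8.6% fell and 7.73% rose with TAF3 siRNA under doxorubicin. Of the 7984 without it, 7.95% fell and 7.68% rose. A match to so short a motif is a description of the letters, and binding was not measured.

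The PA28 genes gave the largest siRNA differences among the 37. PSME1, the alpha subunit of PA28, read 12.77 and 12.51 untreated and 12.48 and 12.45 with doxorubicin after control siRNA. After TAF3 siRNA it read 11.50 and 12.05 untreated and 11.72 and 11.24 with doxorubicin. All 4 TAF3 siRNA arrays lay below all 4 control arrays. Under doxorubicin PSME1 fell by 0.98 ± 0.23 with TAF3 siRNA (limma adjusted p = 0.0273), or 1.98-fold, and in untreated cells its change was -0.86 ± 0.23 (limma adjusted p = 0.281).

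PSME2, the beta subunit, read 11.28 and 11.14 untreated and 11.64 and 11.69 with doxorubicin after control siRNA, and 10.48 and 10.67 untreated and 10.73 and 10.57 with doxorubicin after TAF3 siRNA. Here too the 4 TAF3 siRNA arrays lay below the 4 control arrays, and with control siRNA both doxorubicin arrays lay above both untreated ones. Under doxorubicin PSME2 fell by 1.02 ± 0.15 with TAF3 siRNA (limma adjusted p = 0.00836), or 2.02-fold, the smallest p among the 37 genes. In untreated cells the change was -0.64 ± 0.15 (limma adjusted p = 0.266). The doxorubicin change with control siRNA was 0.46 (limma adjusted p = 0.0725) and with TAF3 siRNA 0.08.

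Together with PSMB4, PSME1 and PSME2 made 3 of 37 genes whose 4 TAF3 siRNA arrays all lay below the control arrays (8.11%, against 3.93% of all features). The other activators did not share that order. PSME3, which forms the nuclear PA28 of identical subunits, had siRNA changes of 0.45 untreated and -0.08 under doxorubicin. PSME4, the large activator PA200, had 0.16 and 0.31, and its doxorubicin change with TAF3 siRNA was 0.42 ± 0.18 (limma adjusted p = 0.210).

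Immunoproteasome subunits, which share interferon control with PA28 in many cells, were measured for 2 of the 3 genes, and PSMB8 had no probe that passed the detection filter. PSMB9 read 7.84 and 7.09 untreated and 7.37 and 7.44 with doxorubicin after control siRNA, and 6.45 and 6.63 untreated and 6.84 and 6.31 with doxorubicin after TAF3 siRNA. PSMB10 read 12.24 and 11.96 untreated and 11.98 and 12.20 with doxorubicin after control siRNA, and 11.48 and 11.85 untreated and 11.44 and 11.21 with doxorubicin after TAF3 siRNA. PSMB9 did not lie above background on TAF3 siRNA untreated replicate 1 and TAF3 siRNA doxorubicin replicate 4, so its values there are upper bounds. In both genes the 4 TAF3 siRNA arrays lay below the 4 control arrays, as in 3.93% of all features. Of 27 other pathway genes measured, described further below, 3 had that order: PSMB9, PSMB10 and UBA1, a ubiquitin-activating enzyme. Under doxorubicin PSMB10 fell by 0.77 ± 0.19 with TAF3 siRNA (limma adjusted p = 0.0332), and PSMB9, measured above background on 1 of the 2 TAF3 siRNA arrays there, was not called (limma adjusted p = 0.066).

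**Figure D4:**
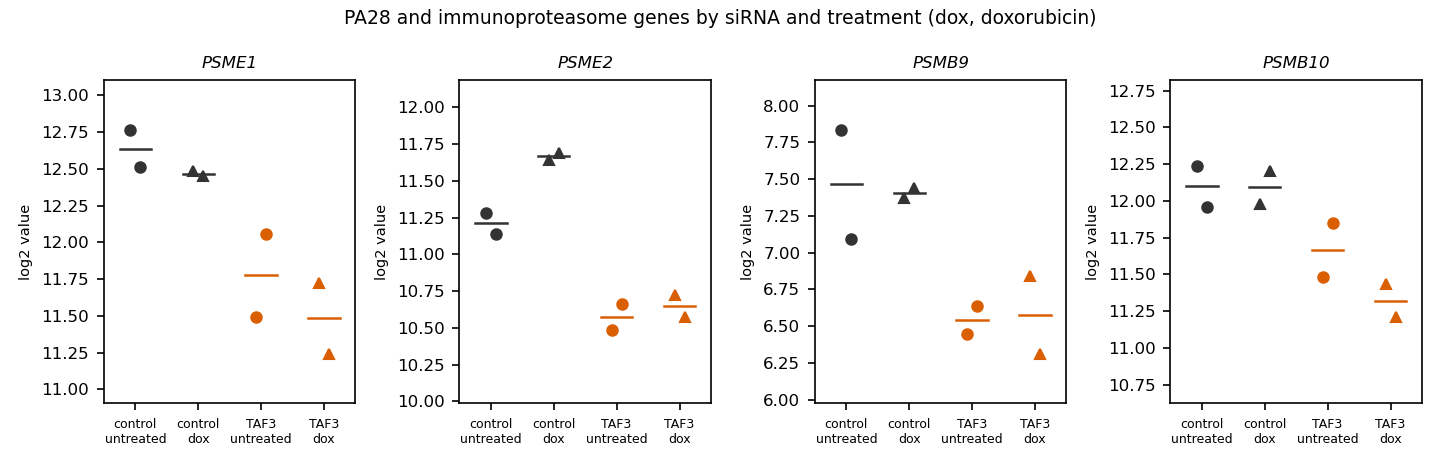
Log2 values of the PA28 genes PSME1 and PSME2 and of the immunoproteasome genes PSMB9 and PSMB10 by siRNA and treatment. Each point is 1 array (circles untreated, triangles doxorubicin, grey control siRNA, orange TAF3 siRNA). Lines are group means of 2 arrays, and every panel spans the same log2 range around its own level. PSMB9 was not above background on TAF3 siRNA untreated replicate 1 and TAF3 siRNA doxorubicin replicate 4. In all 4 genes the TAF3 siRNA arrays lie below the control siRNA arrays, an order that 3.93% of all features had.

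The interferon-element core printed above for PSME1, PSME2 and PSMB10 was found in 4 of the 32 proteasome promoters (12.5%, against 4.38% of the 27305 genes in the table and 3.82% of the 9938 tested genes). The other 2 were PSMA4 and PSMB4. The changes of PSMA4 and PSMB4 for TAF3 siRNA under doxorubicin were 0.36 and -0.33, and neither was called. Over all 380 tested genes with the core, 10.3% fell and 7.63% rose in that comparison, against 7.99% and 7.69% of the 9558 without it. The motifs were chosen with the values of these genes known.

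For 13 of the 37 genes several probes passed the detection filter, and the brightest stood for the gene. The probes of a gene had the same sign in 12 of 13 genes for doxorubicin with control siRNA and in 11 of 13 for TAF3 siRNA under doxorubicin. PSMG1's other probe had a doxorubicin change of -1.29 with control siRNA. PSMA1's other probe had -0.57 and was not called when every probe was tested (limma adjusted p over probes = 0.0945). PSMA4's other probe had -0.68 and was called in that test (limma adjusted p over probes = 0.0469). The brightest PSMA4 probe had -0.39 and was not called. The other PSMC6 probe had -0.19, against -0.61 for the brightest, and the 3 PSMC4 probes ranged from -0.73 to -0.32. PSME1 showed the widest gap, 1.03 for TAF3 siRNA under doxorubicin, where its other probe had a change of 0.05. That probe was near background, detected on 4 arrays with signals between 69.5 and 96.9, while the brightest was detected on all 8 with signals between 2211 and 6888. Levels and changes of PSME1 given here rest on the brightest probe alone, and PSME2 and PSMD5 had no other probe that passed.

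The response to doxorubicin was not called as different between the siRNAs for any of the 37 genes. limma called 6 of 16348 features for that difference (0.0367%) and 0 of 37 here. With 1 array left out, 0 to 324 features were called, the most without TAF3 siRNA doxorubicin replicate 2, and 252 without TAF3 siRNA untreated replicate 1. At an unadjusted p under 0.05 there were 1 of 37 and 2424 of all features. PSMC4 had the smallest p, with a response 0.56 ± 0.21 more positive with TAF3 siRNA (limma adjusted p = 0.282), followed by PSMD5 with 0.53 ± 0.25 (limma adjusted p = 0.358) and PSMD12 with 0.43 ± 0.24 (limma adjusted p = 0.436). A 2-fold difference in response lay outside the 95% interval for 31 of the 37 genes and for 10318 of the 16348 features. PSMA1, PSMC4, PSMC6 and PSMG1 were called for doxorubicin after control siRNA and not after TAF3 siRNA, and by this test those responses are not shown to differ.

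Of the symbols counted apart, PSMC3IP, which encodes a partner of the recombinases of homologous recombination, fell under doxorubicin with TAF3 siRNA. It read 8.50 and 8.47 on the control doxorubicin arrays and 7.42 and 7.45 on the TAF3 siRNA doxorubicin arrays, and 7.86, 8.47, 7.94 and 8.53 on the untreated control and TAF3 siRNA arrays. The change was -1.05 ± 0.24 (limma adjusted p = 0.0262), and the call was lost when any 1 of those 4 doxorubicin arrays was left out (adjusted p up to 0.174). PSME3IP1, which encodes an interactor of PSME3, had changes between -0.06 and 0.24 and was not called.

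A list of 35 other genes of the pathway was followed, of which 27 were measured. PSMF1, PSMB8 and DDI2 had no probe that passed, and the rest were not analysed here. For doxorubicin with control siRNA, 1 of 27 rose and 2 fell (11.1% called, against 17.1% of all features). ADRM1, a ubiquitin receptor of the 19S particle, rose by 0.65 ± 0.16 (limma adjusted p = 0.0275). NGLY1, the glycanase that processes NFE2L1 into its active form, fell by 1.26 ± 0.22 (limma adjusted p = 0.00664), and AKIRIN2, which brings proteasomes into the nucleus, fell by 0.77 ± 0.18 (limma adjusted p = 0.0215). ADRM1 and AKIRIN2 were not called when any 1 of the 4 control siRNA arrays was left out (adjusted p up to 0.193 and 0.17) or under 2 of 8 alternatives that kept every array, nor was NGLY1 without control untreated replicate 1 or control doxorubicin replicate 2 (0.0523 and 0.0823).

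NGLY1 and AKIRIN2 differed between the siRNAs under doxorubicin. NGLY1 read 8.88 and 9.05 on the control doxorubicin arrays and 9.98 and 10.59 on the TAF3 siRNA doxorubicin arrays, against 10.38, 10.08, 10.54 and 10.62 on the untreated ones. AKIRIN2 read 9.85 and 10.01 on the control doxorubicin arrays and 10.60 and 11.01 on the TAF3 siRNA ones. The control doxorubicin pair was the lowest in both genes. How often that order occurs over all features was not counted. For doxorubicin with control siRNA, 33.8% of all features were lower without overlap. For TAF3 siRNA under doxorubicin, 33.1% were higher without overlap. With TAF3 siRNA under doxorubicin NGLY1 rose by 1.32 ± 0.22 (limma adjusted p = 0.0102) and AKIRIN2 by 0.88 ± 0.18 (limma adjusted p = 0.0181). These values share the control doxorubicin arrays with the doxorubicin comparison above, so they are not separate evidence. Both calls were lost without control doxorubicin replicate 2, control doxorubicin replicate 4 or TAF3 siRNA doxorubicin replicate 4 (adjusted p up to 0.125 for NGLY1 and 0.162 for AKIRIN2).

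NFE2L2, the antioxidant factor NRF2, also rose in that comparison, by 0.63 ± 0.17 (limma adjusted p = 0.0441). UBA1, the main ubiquitin-activating enzyme, fell by 0.74 ± 0.19 (limma adjusted p = 0.0341), so that 3 of 27 pathway genes rose and 2, PSMB10 and UBA1, fell (18.5% called, against 13.8% of all features). UBA1 and PSMB10 were not called when 1 of the same 3 arrays was left out (adjusted p up to 0.208 and 0.186). NFE2L2 was not called either in those cases or without control untreated replicate 1 or 3 (adjusted p = 0.0624 for each), and its call was also lost under 3 of 9 alternatives that kept every array. For doxorubicin with TAF3 siRNA 1 of 27 was called (3.7%, against 4.65% of all features): ZFAND5, a zinc-finger partner of the proteasome, rose by 0.70 ± 0.16 (limma adjusted p = 0.0483). When 1 array was left out, ZFAND5 was called only without untreated TAF3 siRNA replicate 1 (adjusted p otherwise up to 0.223), and the call was also lost under 5 of 8 alternatives that kept every array. TAF3 siRNA in untreated cells and the difference in response had 0 calls among the 27.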

How the data were processed

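RNA of 8 arrays in 4 groups of 2 was analysed, with groups and replicate numbers from the sample titles. The authors deposited linear intensity values per probe, and the submitters' processing notes name BeadStudio, with no version. Other steps are not given in the sources used here. Every array had the same median signal of 73.9. The detection values that the authors deposited in another table rise with signal, so they are 1 minus a p-value. With no sample named in that table, they served only to count the arrays detecting a probe, and 8 signal columns beside them stayed unused. A background threshold per array (81.4 to 87.4) was read from the signals of probes detected on 0 and on 8 arrays.

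neqc needs control probes, so signals were corrected by normexp (offset 50), quantile-normalized and taken to log2 in limma 3.58.1 (R 4.3.3). Probes detected on at least 2 arrays were kept, 20628 of 48803, and the brightest stood for each gene. Of all probes 28098 had 1 symbol in the platform's gene table, 13 several and 20692 were not listed. Group means were fitted to 8 arrays (lmFit, eBayes), with Benjamini-Hochberg adjustment over 16348 features in each comparison. The fit was tested on simulated data.

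The members, lists and motifs were chosen with earlier results of these data known. Every measured member is named with its role. Array values are given for PSMB5, PSMB6, PSMB7, PSME1, PSME2 and the called members, and where fewer than 3 were called, the 3 smallest p are named. Array values of PSMD9, PSMC3IP, NGLY1, AKIRIN2, PSMB9 and PSMB10 were added after their values were seen. Replicate numbers were not taken to pair arrays, since no label says what a number shares and deviations of same-numbered arrays correlated at -0.026 untreated and 0.212 with doxorubicin, in 2 correlations. The main fit has no replicate block. Alternatives changed the background correction, scaling, filter, probe choice, block and arrays.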

Additional observations from a re-analysis of the deposited data

How the results depend on the processing

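Each count of called proteasome genes was recomputed leaving out each of 8 arrays and under 8 or 9 other alternatives. For doxorubicin with control siRNA the main count of 4 was 2 on the log2 deposited signal as it is, 2 with a normexp offset of 16, and 0 to 4 with an array left out. For doxorubicin with TAF3 siRNA the main count of 0 became 1 on the deposited signal as it is, 1 with median centring, and 0 to 1 with an array left out. For TAF3 siRNA under doxorubicin the main count of 3 was 0 to 4 with an array left out and 3 to 4 otherwise. The counts for TAF3 siRNA in untreated cells and for the difference in response were 0 under every alternative run. Where an array was left out, its partner was assumed to vary like the other groups.

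The replicate block left the count at 3 for TAF3 siRNA under doxorubicin and ended the call of PSMB10 (-0.77, adjusted p = 0.0535). It could be fitted only between siRNAs, since untreated and doxorubicin arrays share no number.

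Small changes of the catalytic subunits turned sign. With an array left out, the doxorubicin change with control siRNA ran from -0.10 to 0.25 for PSMB5 and from -0.04 to 0.29 for PSMB7. That of TAF3 siRNA under doxorubicin ran from -0.32 to 0.07 for PSMB5, from -0.01 to 0.12 for PSMB6 and from -0.12 to 0.10 for PSMB7, and PSMB6 was -0.05 on the deposited signal as it is and -0.05 with median centring. The cause was not tested.

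Over all features, calls ranged from 268 to 3423 with an array left out for doxorubicin with control siRNA (main 2792; 4201 with only the groups compared), from 36 to 1638 with TAF3 siRNA (main 760; 0 with only the groups compared) from 3 to 3027 for TAF3 siRNA under doxorubicin (main 2257), from 0 to 314 for TAF3 siRNA in untreated cells (main 0) and from 0 to 324 for the difference in response (main 6). Without normalization beyond the deposited scaling, 64.2% of calls for doxorubicin with control siRNA were higher, against 53.2%, and 30.3%, against 44.6%, with TAF3 siRNA. That scaling moved the median difference in response over all features from 0.02 to -0.10. All 37 genes lay above background on all arrays, and TAF3 on 2 of 8.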
